A study of Mus musculus with 15 samples.

Results

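The 10 genes examined here are characteristic of fat cells, and they were followed through mouse mammary tumours: Adipoq, Lep, Retn, Cfd, Plin1, Cidec, Pck1, Lpl, Fabp4 and Pparg. They were taken by symbol from a table of 17271 genes, and 10 of 10 were present. The 15 samples were labelled as mammary tumours of BALB/c mice with a p53-null genotype, so every group lacked this tumour suppressor, and the labels gave no wild-type control, age or tumour site. By the sample titles, 4 samples belonged to the model 2151R, 1 to T11, 2 to 2225L and 8 to 2208L. The titles of 2208L marked 4 samples PBS, 3 samples 3day nt and 1 sample ROSEN. Those of 2225L named 1 library with the prefix CP, whose title also held T-Vivo, and 1 with the prefix ROSEN. All samples of the other models and subsets carried CP except the ROSEN sample of 2208L. Titles marked PBS held codes beginning DH and those marked 3day nt codes beginning KM, none of which the labels explained. The titles of replicates 3 and 4 of 2151R held NT2 and NT and those of replicates 1 and 2 other codes, which the labels did not explain. Nothing in the labels said that samples of a group came from separate animals, so p-values measure only the spread between these samples, which may be technical.

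White adipocytes store triglyceride in a single large droplet and release hormones that report the body's fat stores. In the mouse the mammary epithelium lies inside a pad of such fat. The nuclear receptor PPARγ, working with C/EBP proteins, switches on most of the genes by which a precursor becomes a fat cell. Each value below is a log2 level that the authors centred gene by gene, so 1 unit is a doubling between samples and the genes have no common scale of level. In bulk tumour RNA, fewer fat cells and less RNA of a gene per fat cell cannot be told apart.

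The genes lie on several chromosomes, and the promoters of those on which the results turn are shown so that members that moved together can be compared in sequence. RefSeq promoters (GRCm38.p6) were found for 8 of the 10 genes, with 11 starts in all. Each window below is up to 150 bases just before a start, on the plus strand of the genome, trimmed before any annotated exon, and capitals mark matches to 3 short motifs. The motifs were chosen after the sequences had been read and were searched on both strands: the CCAAT box (CCAAT, or ATTGG on the other strand), the C/EBP site (TTGCNNAA) and the CRE half-site (ACGTCA), through which cyclic AMP signals act. The windows were chr16:23146386-23146535 for Adipoq, chr6:29060071-29060219 for Lep, chr2:173152923-173153047 for Pck1, chr6:115421916-115422065 for the third listed start of Pparg and chr8:3655620-3655769 for Retn.
Adipoq: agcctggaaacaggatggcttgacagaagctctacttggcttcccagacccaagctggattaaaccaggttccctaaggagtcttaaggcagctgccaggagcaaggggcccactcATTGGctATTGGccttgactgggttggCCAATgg
Lep: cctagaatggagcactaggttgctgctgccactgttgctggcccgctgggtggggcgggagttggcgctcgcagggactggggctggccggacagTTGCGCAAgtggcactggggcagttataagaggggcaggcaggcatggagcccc
Pck1: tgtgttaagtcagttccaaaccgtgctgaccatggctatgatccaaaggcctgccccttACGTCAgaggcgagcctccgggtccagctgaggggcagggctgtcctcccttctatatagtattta
Pparg: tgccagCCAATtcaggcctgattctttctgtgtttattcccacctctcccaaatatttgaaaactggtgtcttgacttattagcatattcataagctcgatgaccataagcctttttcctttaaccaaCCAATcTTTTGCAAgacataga
Retn: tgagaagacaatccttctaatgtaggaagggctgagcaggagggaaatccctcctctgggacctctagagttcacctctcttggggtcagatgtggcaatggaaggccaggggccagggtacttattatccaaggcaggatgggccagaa

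Adipoq held 3 CCAAT boxes, within the last 34 bases before its start. A C/EBP match lay 55 to 48 bases before the start of Lep and another 16 to 9 bases before the start of Pparg. Pck1 had a CRE half-site 91 to 86 bases before its start, and Retn matched none of these motifs. Over all 32851 RefSeq starts, 24.5% of windows of 150 bases held a CCAAT box, 5.46% the C/EBP site and 5.15% the CRE half-site. Among the 11 starts of the members these were found in 3, 3 and 1. The direct repeat bound by PPAR and RXR (AGGNCA, any base, AGGNCA) was in 0 of the 11 windows and in 0.228% of all, and the TATA box (TATAAA) in 1 of 11 and in 7.57%. A match describes the letters and no more.

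The secreted products come first. Adipoq encodes adiponectin, the most abundant hormone of fat cells, and lies on chromosome 16 (GRCm38.p6, 23146536 to 23157968). Its level was 3.56, 6.05, 5.37 and 2.45 in replicates 1 to 4 of 2151R, 0.15 in T11, and -2.89 and 2.84 in the CP and ROSEN samples of 2225L. In 2208L it was -2.72, -4.33, 3.21 and -3.64 in PBS replicates 1 to 4, 2.94, 3.02 and 3.02 in the 3day nt samples and -0.43 in the ROSEN sample. Thus 3 PBS samples and the CP sample of 2225L were low, while PBS replicate 3 lay with the 3day nt samples. By group mean the order was 2151R (4.36 ± 1.65, SD, n = 4), 3day nt (2.99 ± 0.049, SD, n = 3), T11, 2225L (-0.02 ± 4.05, SD, n = 2), 2208L ROSEN and PBS (-1.87 ± 3.45, SD, n = 4). The first 2 groups in this order overlapped and were not called different (difference 1.36, limma Benjamini-Hochberg adjusted p 0.543). That fit held all 15 samples, with each subset of 2208L given its own mean. Its p-value rests on the pooled spread of all groups, wide in PBS and 2225L, not on these 2 alone.

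Lep encodes leptin, the hormone that signals fat stores to the brain, and lies on chromosome 6 (29060221 to 29073876). Leptin was 5.93, 6.19, 6.03 and 4.53 in replicates 1 to 4 of 2151R, -0.27 in T11, and -0.35 and 2.85 in the CP and ROSEN samples of 2225L. Samples of 2208L had -0.35, -0.35, 4.79 and -0.35 in PBS replicates 1 to 4, 3.59, 3.76 and 2.71 in the 3day nt samples and 0.00 in the ROSEN sample. The 4 samples at -0.35 share 1 exact lowest value, the meaning of which the labels do not give. Means, differences and tests used such values as deposited, so those of Lep, Plin1, Pck1, Cidec and Retn rest partly on them. Of the 4 samples of 2151R, 3 lay above all 8 of 2208L, and replicate 4 lay below PBS replicate 3.

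Retn encodes resistin, a hormone of mouse fat cells, and lies on chromosome 8 (3655770 to 3659818). Resistin was 2.74, 5.41, 5.35 and -0.96 in replicates 1 to 4 of 2151R, -1.85 in T11, and -1.49 and 4.62 in the CP and ROSEN samples of 2225L. In 2208L it was -1.33, -1.93, 3.001 and -1.93 in PBS replicates 1 to 4, 4.51, 4.40 and 4.49 in the 3day nt samples and 0.42 in the ROSEN sample. Resistin was low in replicate 4 of 2151R, where leptin was high, and the 3day nt samples lay above all PBS samples. Cfd encodes adipsin (complement factor D), a serine protease of the alternative complement pathway that fat cells secrete. It had the widest range of the members, from -4.90 in PBS replicate 2 to 6.29 in replicate 2 of 2151R, a span of 11.2 log2 units.

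**Figure D1:**
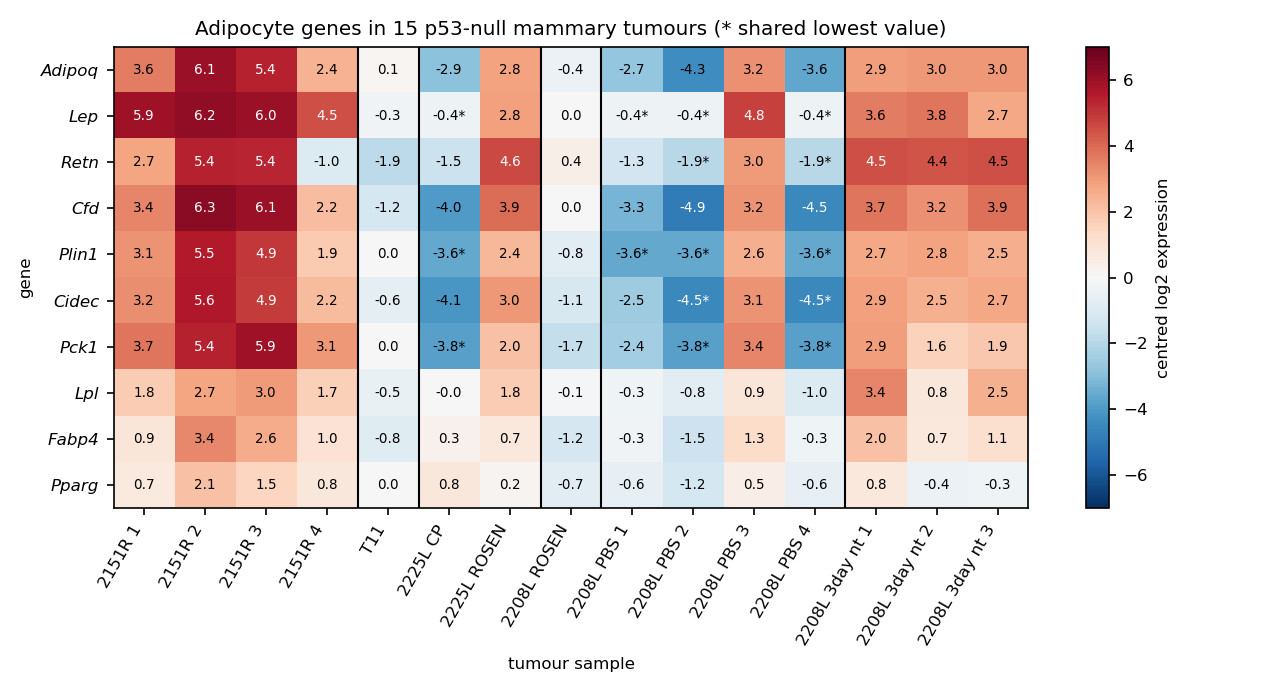
Heat map of the centred log2 level of the 10 adipocyte genes (rows) in the 15 tumour samples (columns, grouped by model and subset), red high and blue low, with the value in each cell and an asterisk at a shared lowest value. Replicates 2 and 3 of 2151R are darkest red, and PBS replicates 2 and 4 of 2208L are in the lowest 4 of 15 samples at all 10 genes.

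The lipid droplet proteins followed the same samples. Plin1 encodes perilipin 1, which coats the droplet and controls access of lipases, and Cidec encodes a protein that fuses droplets into larger ones. Plin1 ranged from 1.85 to 5.54 in 2151R, from 2.53 to 2.81 in the 3day nt samples, and stood at 2.55 in PBS replicate 3 against a shared lowest value of -3.59 in the other PBS samples and in the CP sample of 2225L. Cidec ranged from 2.24 to 5.58 in 2151R and from 2.49 to 2.88 in the 3day nt samples, was 3.12 in PBS replicate 3, and lay between -4.53 and -2.51 in the other PBS samples. In T11 these genes were at 0.00 and -0.61.

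Pck1 encodes the enzyme that makes the glycerol backbone for triglyceride from non-glucose sources in fat cells, and that drives gluconeogenesis in liver and kidney. It was 3.73, 5.38, 5.93 and 3.06 in replicates 1 to 4 of 2151R, 0.00 in T11, and -3.78 and 2.04 in the CP and ROSEN samples of 2225L. The 2208L levels were -2.44, -3.78, 3.41 and -3.78 in PBS replicates 1 to 4, 2.93, 1.62 and 1.87 in the 3day nt samples and -1.69 in the ROSEN sample. Replicates 1 to 3 of 2151R lay above every sample of 2208L, and 3 samples of other groups shared the lowest value. Other liver or kidney genes could not stand in as a check, since only Nphs1 of 8 such markers was in the table.

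Fabp4 encodes the fatty acid carrier of the fat cell cytoplasm, which endothelium and macrophages also make. It was 0.87, 3.37, 2.57 and 1.01 in replicates 1 to 4 of 2151R, -0.85 in T11, and 0.30 and 0.73 in the CP and ROSEN samples of 2225L. Samples of 2208L had -0.25, -1.47, 1.27 and -0.29 in PBS replicates 1 to 4, 2.02, 0.74 and 1.11 in the 3day nt samples and -1.17 in the ROSEN sample. Replicates 2 and 3 of 2151R lay above every sample of 2208L, and replicates 1 and 4 lay within its range.

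Lpl encodes lipoprotein lipase, which frees fatty acids from circulating triglyceride and is also made by muscle. Its level was 1.80, 2.74, 2.96 and 1.69 in replicates 1 to 4 of 2151R, -0.50 in T11, and -0.02 and 1.77 in the CP and ROSEN samples of 2225L. The 2208L levels were -0.29, -0.79, 0.86 and -0.97 in PBS replicates 1 to 4, 3.42, 0.78 and 2.48 in the 3day nt samples and -0.07 in the ROSEN sample. The highest Lpl value of all 15 samples was in 3day nt replicate 1, and no sample of 2151R lay above it.

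Pparg encodes the nuclear receptor described above, on chromosome 6 (115360879 to 115490404). It was 0.69, 2.08, 1.53 and 0.78 in replicates 1 to 4 of 2151R, 0.00 in T11, and 0.79 and 0.20 in the CP and ROSEN samples of 2225L. In 2208L it was -0.55, -1.23, 0.48 and -0.58 in PBS replicates 1 to 4, 0.76, -0.42 and -0.29 in the 3day nt samples and -0.73 in the ROSEN sample. Pparg spanned 3.31 log2 units over the 15 samples, the narrowest range of the members, and was the only member lower in the ROSEN than in the CP sample of 2225L.

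The members varied together, and Pparg least so. Over the 15 samples, Pearson correlations among Adipoq, Plin1, Cidec, Cfd and Pck1 ran from 0.959 to 0.994. Pparg correlated with the other 9 members at 0.524 (with Retn) to 0.871 (with Fabp4). These are descriptions over samples that share models and library ranges. The difference Lep minus Adipoq was not fixed: it was 2.37 and 2.08 in replicates 1 and 4 of 2151R and 0.14 and 0.66 in replicates 2 and 3. Retn minus Adipoq was -3.40 in replicate 4 of 2151R, between -0.81 and -0.01 in its other replicates, and between 1.38 and 1.57 in the 3day nt samples.

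**Figure D2:**
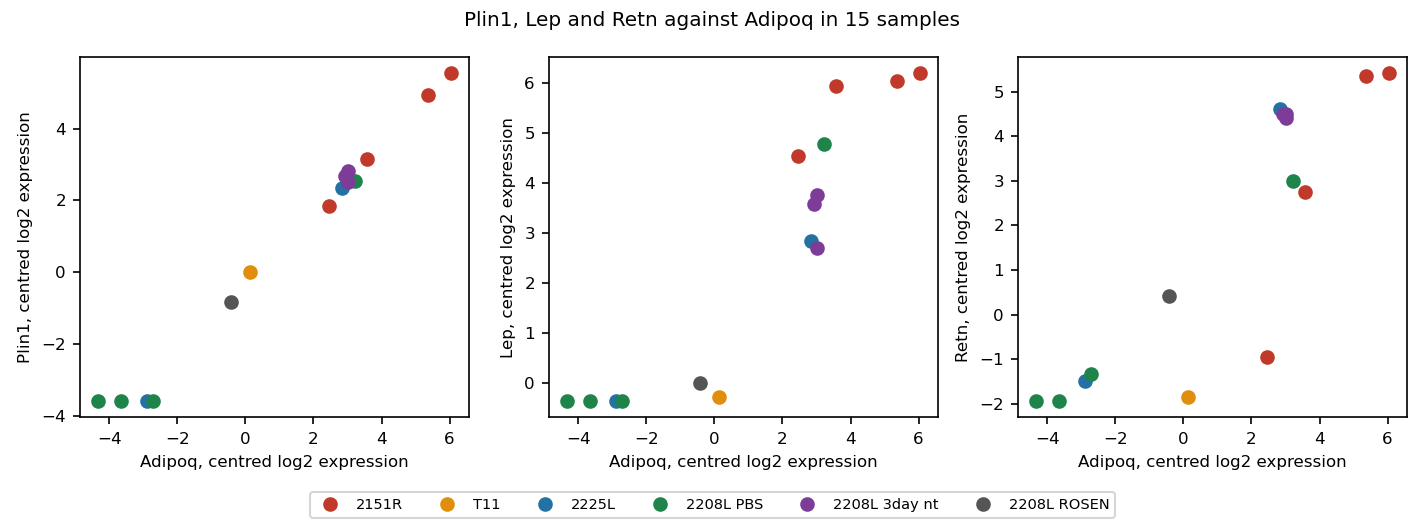
Centred log2 level of Plin1, Lep and Retn (vertical axes) against Adipoq (horizontal axis), with 1 point for each of the 15 samples coloured by model or subset. Plin1 lies close to a line (r = 0.994), whereas Retn is low (-0.96) in 1 sample of 2151R with an Adipoq level of 2.45.

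How the fat cell genes differed between 2151R and 2208L was tested with limma across all genes. Of the 10 members, 4 were higher in 2151R and 0 lower at a Benjamini-Hochberg adjusted p under 0.05, where 26.1% of all genes were higher and 22.7% lower. Lep, the leptin gene, was higher by 3.95 (5.67 ± 0.77, SD, n = 4, against 1.72 ± 2.20, SD, n = 8; SE 1.08, limma adjusted p 0.00854). Pck1 was higher by 4.76 (SE 1.57, limma adjusted p 0.0229), Fabp4 by 1.71 (SE 0.67, limma adjusted p 0.0484) and Pparg by 1.59 (SE 0.37, limma adjusted p 0.00286). The median difference was 3.97 over the members and 0.10 over all genes. Cfd (4.32), Adipoq (4.22), Cidec (4.16) and Plin1 (3.99) differed with SEs of 1.64 to 2.06 and were not called (limma adjusted p between 0.0553 and 0.0990). Lpl differed by 1.62 (SE 0.76, limma adjusted p 0.0957) and Retn by 1.68 (SE 1.75, limma adjusted p 0.452). No member separated the models without overlap, while 20.6% of all genes did so in this direction.

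These calls depended on which subset of 2208L was used. Against the PBS samples alone, 9 of 10 members were higher in 2151R (27.5% of all genes were), with a median difference of 5.33. Against the 3day nt samples alone, 1 of 10 was higher (27.7% of all genes were), with a median difference of 1.22, and that member was Pparg (difference 1.25, limma adjusted p 0.0378). That fit used the spread pooled over all groups, so a member not called could still separate. All samples of 2151R lay above all 3day nt samples at Lep (4.53 to 6.19 against 2.71 to 3.76). They did so too at Pck1 (3.06 to 5.93 against 1.62 to 2.93). The other members overlapped, Pparg among them (lowest 0.69 in 2151R, highest 0.76 in 3day nt). Pparg was called in 25 of 25 alternatives, with limma adjusted p between 0.000838 and 0.0470. Lep against the 3day nt samples differed by 2.32 (limma adjusted p 0.124), and Retn by -1.33 (limma adjusted p 0.562). Over all alternatives of 2151R against 2208L, limma adjusted p ran from 0.00313 to 0.124 for Lep and from 0.0900 to 0.876 for Retn. Pck1 was not called without replicate 2 (limma adjusted p 0.0613) or replicate 3 (0.0693) of 2151R, and its range over alternatives was 0.00850 to 0.274. The call of Fabp4 was lost in 12 of 25 alternatives, over which limma adjusted p ran from 0.0177 to 0.450. Without replicate 2 of 2151R, 2 members were called higher (24.0% of all genes were), and without replicate 3 also 2 (23.3%). Without 3day nt replicate 1, 7 were (26.5%). Libraries of 2151R carry a run of numbers of their own, and a difference between models and one between such runs cannot be told apart.

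**Figure D3:**
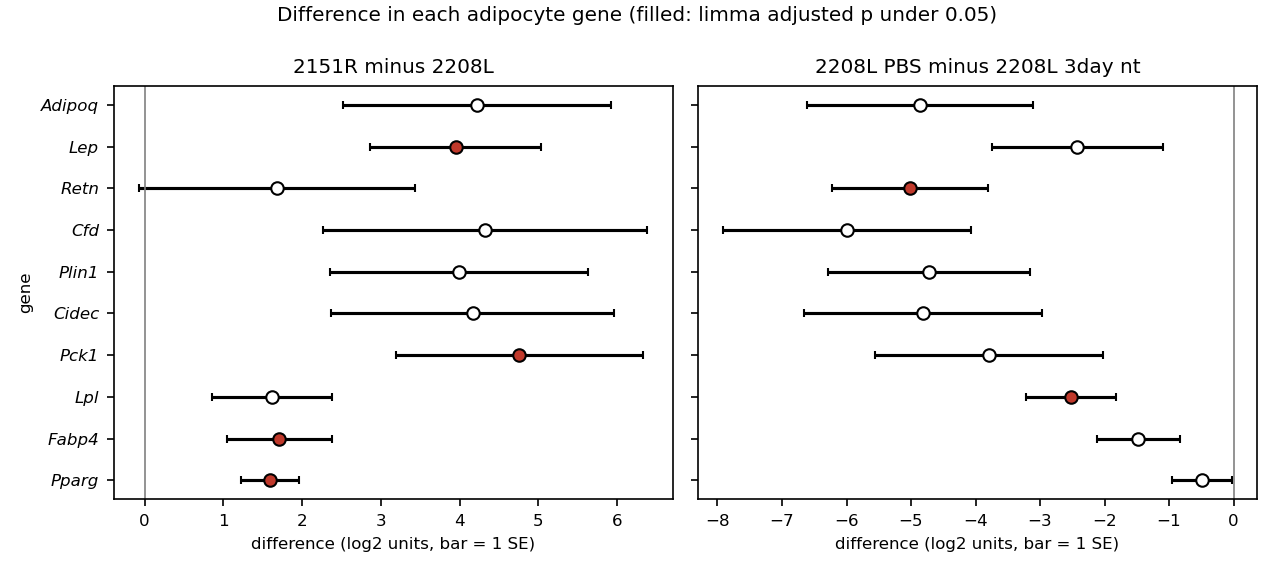
Difference in each adipocyte gene on the log2 scale (horizontal axis) for 2151R minus 2208L (left) and for PBS minus 3day nt within 2208L (right), with bars of 1 SE and filled points where the limma adjusted p is under 0.05. On the left all 10 differences are positive and 4 are filled, and on the right all 10 are negative and 2 are filled.

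Within 2208L, the PBS samples were compared with the 3day nt samples. All 10 members had lower means in PBS, with a median difference of -4.26 against -0.05 over all genes. Of these, 2 were called lower by limma, where 16.5% of all genes were. Retn differed by -5.02 (-0.55 ± 2.38, SD, n = 4, against 4.47 ± 0.055, SD, n = 3; SE 1.22, limma adjusted p 0.0221). Lpl differed by -2.52 (-0.30 ± 0.82, SD, n = 4, against 2.23 ± 1.34, SD, n = 3; SE 0.70, limma adjusted p 0.0340). Cfd (-5.99, limma adjusted p 0.0512) and Plin1 (-4.73, 0.0562) just missed the threshold. Retn and Cfd separated the subsets without overlap, as 23.8% of all genes did in this direction. Pparg differed least, by -0.49 (SE 0.46, limma adjusted p 0.430).

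PBS replicate 3 stood apart from the other PBS samples. It exceeded the highest of the other 3 PBS samples by 5.93 at Adipoq, 6.43 at Cfd and 1.03 at Pparg. At Plin1 and Lep those 3 samples lay at the shared lowest value, so no size is given. The members' own values singled out this sample. The fit that follows is therefore no separate test of them, and it leaves out PBS replicate 3. Without it, 9 of the 10 members were lower in PBS (15.4% of all genes were), with Adipoq at -6.55 (limma adjusted p 0.00342, from 0.00342 to 0.423 over its alternatives) and Pparg the exception. At Plin1 and Lep the 3 PBS samples then all lay at 1 shared value, so their spread was not measured. Leaving out PBS replicate 1 or 2, or 3day nt replicate 1 or 3, left 0 members called, and leaving out PBS replicate 4 left 1. Where 0 were called, from 5.89% to 10.7% of all genes were lower, and without PBS replicate 4, 16.3% were. Limma adjusted p over the alternatives ran from 0.000321 to 0.282 for Retn and from 0.0101 to 0.467 for Lpl. The subsets also carry separate runs of library numbers and separate title codes (DH and KM), and these cannot be told apart from the difference between subsets.

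Skeletal muscle genes moved with some of these samples. Their mean over 10 of 10 markers, each relative to its own mean over the samples, was 8.84 and 8.27 in 3day nt replicates 1 and 3, 0.35 in 3day nt replicate 2 and 4.85 in replicate 3 of 2151R, and between -4.42 and 1.46 in the other 11 samples. The mean of the 10 adipocyte genes, taken the same way, was highest in replicate 2 of 2151R (3.73), where the muscle mean was -4.17. Among the 3day nt samples, this adipocyte mean was 1.81 and 1.31 in replicates 1 and 3 and 1.11 in replicate 2. Adipoq was as high in replicate 2 (3.02) as in replicates 1 and 3 (2.94 and 3.02), and Plin1 and Lep were highest in replicate 2. Lpl was higher in replicates 1 and 3 (3.42 and 2.48) than in replicate 2 (0.78). Fabp4, Cfd, Pck1, Cidec, Pparg and Retn were also lowest in replicate 2. Whether the members follow muscle content was not tested. Without these 3 libraries, 5 members were called higher in 2151R than in 2208L (23.6% of all genes were). Lpl was among them (2.16, limma adjusted p 0.00683, from 0.00509 to 0.939 over its alternatives). The comparison of the subsets then had a single 3day nt sample, assumed to vary like the PBS samples, with Retn at -4.95 and Lpl at -1.07.

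Markers of other stromal cells were also compared between 2151R and 2208L. By limma, 26.1% of all genes were higher in 2151R and 22.7% lower, and the counts of this paragraph stand against these shares. Of 8 endothelial markers, 6 were higher in 2151R (Tek by 1.52 and Cdh5 by 1.52). Of 8 macrophage markers, 6 were higher (Mrc1 by 2.28) and Cd14 was lower (-3.76). Of 8 fibroblast markers, 3 were higher, among them Dcn (3.56). Of the 10 muscle markers, Mb, which encodes myoglobin, was lower (-6.89). The summed endothelial level, as a mean over markers, ran from 0.34 to 1.01 in 2151R and from -0.96 to 0.42 in 2208L, and that of macrophages from 0.50 to 0.94 and from -0.51 to 0.37. Fibroblast means ran from 0.28 to 1.26 in 2151R and from -1.70 to 0.86 in 2208L. The part of these cells in the levels of Fabp4, Lpl and Pparg was not tested. Of 6 Schwann cell markers, Pmp22 was higher (2.71) and 2 were lower, with Sox10 at -7.11. Because each gene is centred, absence of a marker cannot be read from these values. Of 7 luminal and milk markers, 5 were lower in 2151R, with the keratin gene Krt8 at -6.27 and the luminal transcription factor gene Elf5 at -5.39. The keratin gene Krt19, named after its value was seen, was higher (3.61), and T11 had the lowest mean of these markers (-6.40).

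**Figure D4:**
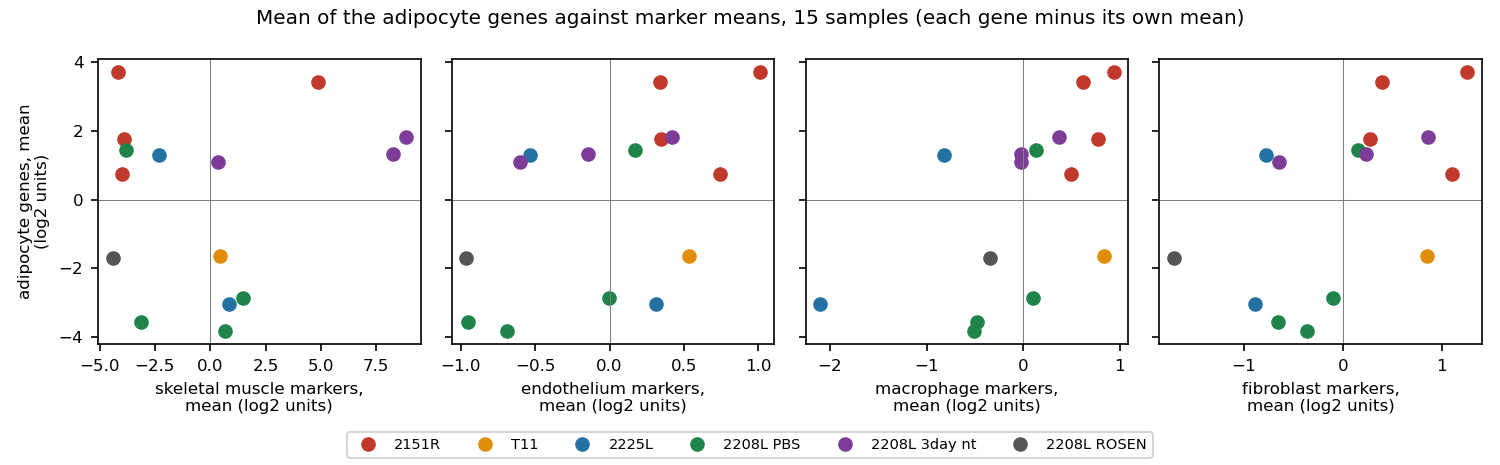
Mean of the 10 adipocyte genes (vertical axis, log2 units, each gene minus its own mean over samples) against the mean of muscle, endothelial, macrophage and fibroblast markers (horizontal axes, log2 units), with 1 point for each of the 15 samples. Adipocyte means between 1.11 and 1.81 in the 3day nt samples go with muscle means from 0.35 to 8.84.

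T11 and 2225L had few samples. In T11, which has 1 sample and no test, 10 of 10 members lay below the mean of 2151R, with a median difference of -4.37 against 0.09 over all genes. T11 was lower than every sample of 2151R at each member, and its adipocyte mean of -1.65 was close to the -1.70 of the ROSEN sample of 2208L. At Lep and Retn, T11 (-0.27 and -1.85) lay just above the shared lowest values (-0.35 and -1.93). Lep differed between 2225L and 2151R by -4.43 (1.25 ± 2.26, SD, n = 2, against 5.67 ± 0.77, SD, n = 4; SE 1.53, limma adjusted p 0.0293). It was the only member called lower of 10, where 25.8% of all genes were, and the median difference was -4.40 over the members and -0.10 over all genes. This call was lost without replicate 1 (limma adjusted p 0.0546), 2 (0.0559) or 3 (0.0533) of 2151R or the CP sample of 2225L (0.248), and adjusted p ran from 0.0117 to 0.248 over the alternatives.

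The 2 columns of 2225L disagreed on fat cell genes. The ROSEN sample was higher than the CP sample at 9 of 10 members, by a median of 5.78 log2 units against 0.08 over all genes. The gap was largest at Cfd (7.90), Cidec (7.11) and Retn (6.11), and smallest among the 9 at Fabp4 (0.43). At Cidec and Retn the CP sample (-4.09 and -1.49) lay just above the shared lowest values (-4.53 and -1.93), so the size of these gaps is uncertain. A gap of more than 2 units was found at 7 members and at 6.06% of all genes. At Cfd and Retn the ROSEN sample lay above all 8 samples of 2208L, whereas at Plin1, Lep and Pck1 the CP sample lay at the lowest value, which it shared with PBS samples. With these columns as its only samples, 2225L did not separate from 2208L: 0 of 10 members were called by limma in either direction, where 15.6% of all genes were higher and 17.3% lower, and 0 had an unadjusted p under 0.05. The median difference over the members was -0.16, which was 2.37 without the CP sample and -2.98 without the ROSEN sample. Compared within a library prefix, the ROSEN sample of 2225L exceeded that of 2208L at 10 of 10 members (median 3.22). Its CP sample exceeded the mean of the 7 CP samples of 2208L at 1 of 10 (median -3.10). Each prefix holds 1 sample of 2225L, and only the CP title held T-Vivo, so no test was made.

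Other genes of fat cells were called in both directions between 2151R and 2208L, and the counts below stand against 26.1% of all genes higher and 22.7% lower. Of 13 further droplet and lipolysis genes, Plin2 was higher (1.42) and 3 were lower, with a median difference of 0.06. Cidea, a droplet protein of brown fat, differed by -3.78, Abhd5, an activator of triglyceride lipase, by -1.78 and Plin3 by -0.71. Among 12 genes of fatty acid and glycerol transport, 5 were higher and 4 lower, with Cav1 (caveolin 1) at 4.10 and the carrier Fabp5 at -3.44. Of 16 genes of triglyceride and fatty acid synthesis, Elovl6, a fatty acid elongase, was higher (1.22) and 5 were lower, with a median of -0.32. Pcx, pyruvate carboxylase, differed by -1.98 and Me1, malic enzyme, by -1.24.

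Of 15 other adipogenic transcription factors, Klf4 was higher (2.36) and 8 were lower, among them Cebpb (-1.97 ± 0.39, SD, n = 4, in 2151R against 1.40 ± 0.30, SD, n = 8, in 2208L, a difference of -3.37) and Klf15 (-2.93). Cebpb and Klf15 encode factors that act before or beside PPARγ in fat cell formation. On a list of other hormones and products of fat cells, 4 of 11 were higher and Nampt was lower (-0.37). Nnat (neuronatin) differed by 2.08 and Angptl2 (angiopoietin-like 2) by 1.95. Of 11 genes of the insulin and adrenergic response, 2 were higher, and the kinase gene Akt2 was lower (-0.69). Pde3b, the phosphodiesterase by which insulin restrains lipolysis, differed by 3.56.

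Genes of fat cell precursors were higher in 4 of 12, a share near the 26.1% of all genes. Pdgfra, the receptor that marks these precursors and fibroblasts, differed by 2.10 and Wnt10b, a Wnt ligand that restrains adipogenesis, by 3.75. Of the 4 genes for receptors of adiponectin and leptin, 1 was called. Cdh13, the adiponectin-binding T-cadherin, was higher in 2151R by 2.70 (limma adjusted p 0.000190). Adipor1 (-0.39), Adipor2 (0.40) and Lepr (0.70) were not called, with limma adjusted p between 0.0556 and 0.233. Adipor1 nevertheless separated the models without overlap, from 0.00 to 0.10 in 2151R and from 0.32 to 0.71 in 2208L. Of 7 brown fat markers, Dio2 (3.87) was higher and Cidea (-3.78) and Ppargc1a (-3.56) were lower. Genes given with a difference and no p in these lists were called by limma, and Plin2, Plin3, Elovl6, Klf4, Nampt, Akt2 and Ppargc1a were named after their values were seen.

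Among 17260 other genes, 9 had a Pearson correlation of at least 0.9 with the mean of the members over the 15 samples, and 94 (0.545%) one of at least 0.8. The 8 most alike were Ces1d (0.965), Serpina3c (0.961), B3galt2 (0.936), Cyp2e1 (0.934), Adrb3 (0.933), Slc36a2 (0.929), Cd209f (0.925) and Plin4 (0.908). Ces1d encodes a carboxylesterase that hydrolyses lipid, Adrb3 the beta-3 adrenergic receptor of fat cells and Plin4 a perilipin of nascent droplets. Leaving out the 2 samples farthest from the median adipocyte level, PBS replicates 2 and 4, these correlations ran from 0.866 to 0.971. Ces1d was 4.66 and 4.78 in replicates 2 and 3 of 2151R, 2.49 in the ROSEN sample of 2225L and -2.18 in its CP sample. Of the 8, only B3galt2 was called between 2151R and 2208L (difference 3.54, SE 1.07, limma adjusted p 0.0144), where 26.1% of all genes were higher. In PBS against 3day nt, Ces1d, B3galt2, Adrb3 and Slc36a2 were called lower by limma, where 16.5% of all genes were, and the rest were not. The 8 were picked for likeness to the members over these same samples, so neither count is a separate test. Ces1d, Serpina3c, Adrb3 and Cd209f each held an exact value shared by 2 or 3 samples, on which their correlations partly rest.

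**Figure D5:**
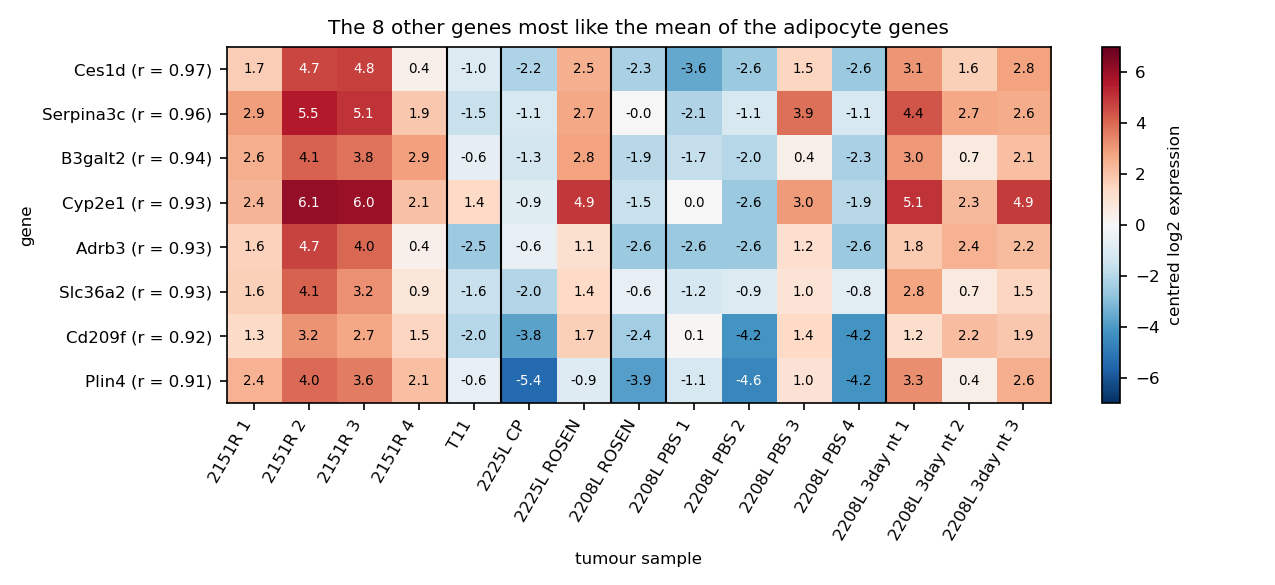
Heat map of the centred log2 level of the 8 other genes whose pattern was most like the mean of the adipocyte genes (rows, with their correlation r) in the 15 samples (columns), red high and blue low. Cyp2e1 reaches 6.15 and 6.04 in replicates 2 and 3 of 2151R and 4.93 in the ROSEN sample of 2225L, and -2.62 in PBS replicate 2.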

How the data were processed

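RNA of 15 mammary tumour samples was measured by poly(A) RNA-seq, and the deposited table holds log2 values of 17271 genes. That they are log2 and centred on a median is read from the table's name. The reference set of the centring and the offset before the logarithm are not given in the sources used here. The submitters' processing notes name STAR, Salmon and mm10, without a role or version. With no counts, depth is unknown and precision rests on the spread between samples. Values ran from -14.55 to 13.11, and 727 genes (4.21%) held a value shared exactly by 2 or more samples.

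Samples were grouped by title, and replicate numbers follow accession order and pair nothing. The functions lmFit and eBayes of limma 3.58.1 (R 4.3.3), without a trend, were fitted to all genes with 1 mean per model over 15 samples, or to the 7 samples of 2208L PBS and 3day nt, and Benjamini-Hochberg adjusted p-values under 0.05 were called. The fits were tested on simulated data. The members, the gene lists and the alternatives were chosen with earlier results of these data known. Other named genes are from each list the 2 called genes that differed most between 2151R and 2208L, the receptors of adiponectin and leptin, and the 8 most alike genes. A gene that this rule names is not reported here. Correlations and figures used Python 3.11.15 with pandas 2.3.3 and matplotlib 3.10.9. RefSeq promoters were trimmed with GENCODE M21 exons (release 21). Alternatives covered scaling, the fit, gene filters, sample choice, library prefix and each sample left out.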

Additional observations from a re-analysis of the deposited data

Results flagged for a closer look

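In all, 4 member values stood apart from the rest of their group by Dixon's criterion at the 95% level. The criterion was applied to the members and their mean in 2151R (4 samples), 2208L (8) and 2208L PBS (4). In 2208L PBS replicate 3, Plin1 was 2.553, Lep 4.785 and Retn 3.001. The other 3 PBS samples shared 1 exact value at Plin1 (-3.59) and at Lep (-0.35) and lay between -1.93 and -1.33 at Retn. In replicate 4 of 2151R, Lep was 4.531, where the other 3 replicates lay between 5.93 and 6.19. Because the other PBS samples are tied at Plin1 and Lep, any different value in the remaining sample would have stood apart there. Chance alone sets about 1 in 20 such groups apart, or 1.65 of the 33 tested, and these groups share samples.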

How the results depend on the processing

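Members called higher in 2151R than in 2208L numbered 4 of 10 (26.1% of all genes were). They were 7 after quantile normalization (26.2% of all genes) and 1 with only those titled NT, nt or PBS (18.3%). Against PBS samples only there were 9 (27.5%) and against 3day nt samples only 1 (27.7%). With a replicate left out there were from 2 to 7 (20.5% to 26.5%). Retn reversed against the 3day nt samples only (-1.33). Members called lower in 2225L than in 2151R numbered 1 (25.8% of all genes were). They were 2 in a fit of these models only (24.6%) and 0 with library prefix as a covariate (22.3%). Without the 3 libraries with high muscle markers there were 0 (25.8%), and with a replicate of 2151R left out from 0 to 1 (22.0% to 24.6%). Members called lower in PBS than in 3day nt numbered 2 (16.5% of all genes were). They were 4 after centring each sample on its median (19.5%) and 1 in a fit of all 15 samples (13.5%). With a replicate left out there were from 0 to 9 (5.89% to 18.0%). The cause of these shifts was not tested. For 2225L against 2208L, 0 members were called in every alternative run.

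Over all genes, a minimum difference of 1 log2 unit left 2585 higher and 2566 lower of 4508 and 3926 for 2151R against 2208L, and 1206 and 1002 of 3007 and 2857 for PBS against 3day nt. In the latter, leaving out a replicate gave 1362 to 3988 higher and 1017 to 3111 lower, and leaving out the libraries high in muscle markers gave 76 and 22, with 1 sample left in 3day nt. That setting was chosen after the data were seen. Leaving out genes with a repeated value kept only 5 members, so no member count is given. No paired analysis was possible because no title numbers its replicate. Depth is unknown, and differences at Lep, Plin1, Pck1, Cidec and Retn rest partly on a shared lowest value of unstated meaning.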
